A study of Danio rerio with 6 samples.

Results

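Mitochondria make most of a cell's ATP by oxidative phosphorylation, in which complexes I to IV of the inner membrane pass electrons from NADH and succinate to oxygen. Complexes I, III and IV pump protons in doing so, and complex V, the ATP synthase, uses the proton gradient to make ATP. The subunits of complex II and most subunits of the other complexes are encoded in the nucleus, made in the cytosol and imported, and a further set of nuclear genes encodes the factors that assemble them. In the intestine, absorptive enterocytes use this ATP to drive nutrient uptake. The genes described here are the rows of a zebrafish gut count table whose symbols begin with nduf, sdha to sdhd, uqcr, cox4 to cox19 or atp5, together with cyc1. There were 104 such genes among 15419 in the table, of which 41 belong to complex I, 8 to complex II, 9 to complex III, 27 to complex IV and 19 to complex V. The ndufa4 genes were placed with complex IV, since mammalian NDUFA4 is a subunit of that complex.

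RNA was sequenced from guts dissected at 5 days post-fertilization (dpf) from il26KO larvae, which carry a CRISPR/Cas9 deletion in the cytokine gene il26, and from WT larvae. Each genotype had 3 libraries, and each library pooled 10 to 15 guts. The parents of both genotypes came from shared clutches and were housed in separate tanks by genotype, so genotype and tank cannot be told apart. The wild-type line of the study was AB, and the labels list no treatment. Nothing in the sources used here says whether the pools came from separate clutches, so p-values measure the spread between these pools. Library depth was 15693057 to 28303340 counts, and the il26 row held 0 counts in all 6 libraries, which leaves the genotype unchecked by the targeted gene. Of 6 enterocyte markers, 5 were abundant and fabp2 was near 0, at 0.227, 0.447 and 0.423 CPM in the il26KO libraries and 0.366, 0.0737 and 0.418 CPM in the WT libraries. CPM values are counts scaled to a common, normalized library size.

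Across the respiratory chain, expression in il26KO guts was slightly lower than in WT guts for most genes, but no single gene passed the test. Of the 104 genes, 90 had enough counts to be tested. Their median log2 fold change, il26KO over WT, was −0.11, which is −7.52% (quartiles −0.18 and −0.06). A negative log2 fold change was found for 78 of the 90 genes (86.7%), against 46.8% of all 11095 genes tested, whose median was 0.01. The edgeR quasi-likelihood test with Benjamini-Hochberg adjustment over all genes called 0 of the 90 at adjusted p below 0.05, against a background of 0.108% of all genes in either direction and 0.0451% lower in il26KO. The smallest adjusted p among the 90 was 0.746. At an unadjusted p below 0.05 there were 3 genes, ndufa2, uqcr10 and cox6b1, all lower in il26KO. That share, 3.33%, lies below the 6.03% of all genes at this threshold in either direction and above the 2.51% in the lower direction. DESeq2 also called 0 of the 90, against 83 of all 11095 genes. At an unadjusted p below 0.05 in DESeq2 there were 2 of the 90 (2.22%), against 4.27% of all genes. The median standard error of a gene's log2 fold change was 0.098, about the size of the median change itself.

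**Figure D1:**
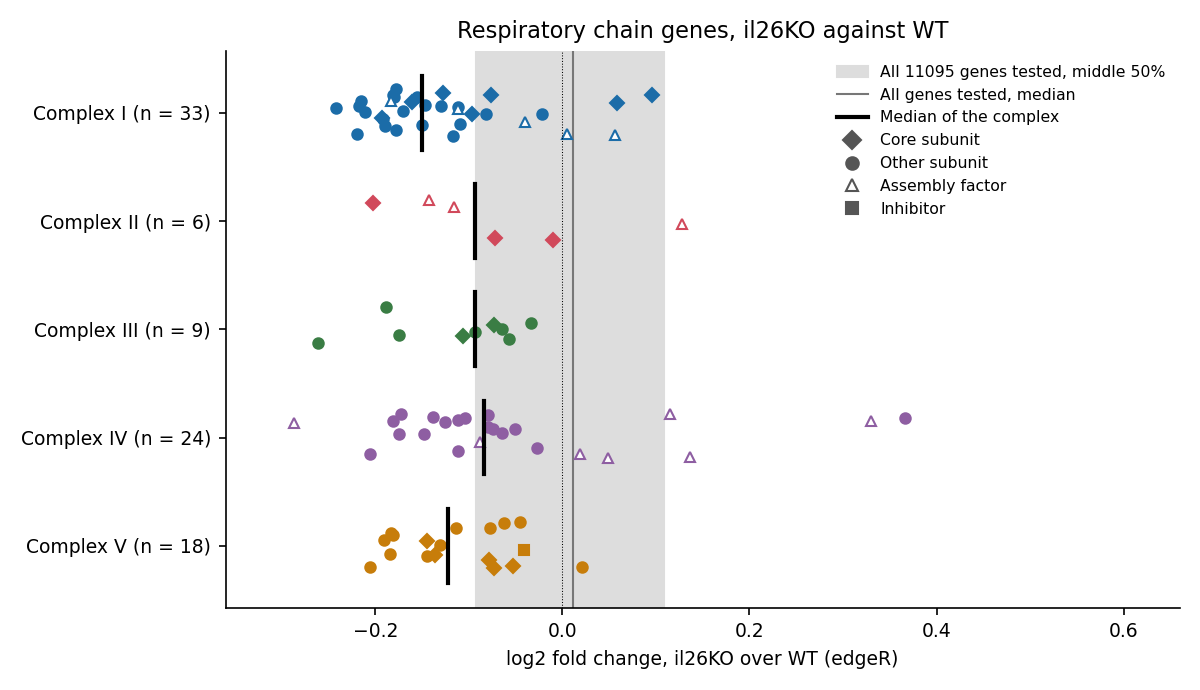
Log2 fold change (x axis, il26KO over WT) of each of the 90 tested respiratory chain genes, in rows by complex, with symbols for core subunits, other subunits, assembly factors and the inhibitor. The vertical bars are complex medians, all between −0.15 and −0.08, and the grey band spans the quartiles of all 11095 genes tested, whose median was 0.01.

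The genotypes overlapped when the genes were summed in each library. The 90 genes held 1.79%, 1.74% and 1.62% of all counts in il26KO libraries 1 to 3, against 1.92%, 1.84% and 1.77% in WT libraries 1 to 3. The means were 1.72 ± 0.0862% in il26KO and 1.84 ± 0.0779% in WT (SD, n = 3 each), and il26KO library 1 lay above WT library 3. Within each genotype the share fell from library 1 to library 3, and each il26KO library lay below the WT library of the same number. These numbers come from the sample titles, which do not say whether libraries of the same number belong together. As a measure that does not let a few abundant genes dominate, the deviation of each gene's log2 CPM from its mean over the 6 libraries was taken, and its median over the 90 genes was 0.02, −0.04 and −0.14 in il26KO libraries 1 to 3 and 0.16, 0.07 and −0.07 in WT libraries 1 to 3. WT library 3 was thus below il26KO libraries 1 and 2. The same median over all genes tested stayed between −0.01 and 0.01 in every library.

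A pair of libraries stood at the ends of this order. WT library 1 was the highest of the 6 for 70 of the 90 genes (77.8%), against 17.96% of all genes tested, and il26KO library 3 was the lowest for 56 of the 90 (62.2%), against 11.97% of all genes. By complex, WT library 1 was highest for 28 of 33 genes of complex I, 5 of 6 of complex II, 8 of 9 of complex III, 14 of 24 of complex IV and 15 of 18 of complex V. Likewise, il26KO library 3 was lowest for 21 of 33, 1 of 6, 5 of 9, 14 of 24 and 15 of 18. Only 5 of the 15 assembly factors were highest in WT library 1 and 2 of 15 lowest in il26KO library 3, against 64 and 53 of the 74 subunits. WT library 1 had 25260779 counts and 12702 genes detected, and il26KO library 3 was the deepest, with 28303340 counts. The normalization factor of library size was lowest in WT library 1, 0.975, and highest in WT library 3, 1.03, which moves their CPM apart. Before this scaling, the share of counts was also highest in WT library 1 and lowest in il26KO library 3. The part of depth and of scaling in the order of the libraries was not tested. Without WT library 1 the median log2 fold change of the 90 genes was −0.07, with 72 of 90 lower. Leaving out il26KO library 3 gave −0.08, also with 72 of 90 lower. Without WT library 3 the median was −0.16, with 81 of 90 lower. The number of genes at an unadjusted p below 0.05 moved from 3 to 25 without WT library 3 (27.8%, against 9.13% of all genes in that fit) and to 17 without il26KO library 1 (18.9%, against 5.79%), all lower in il26KO. It was 0 without WT library 2 (0%, against 3.78% of all genes in that fit). Without il26KO library 2, il26KO library 3 or WT library 1 it was 1 (1.11%, against 5.97%, 5.48% and 6.55%). With either il26KO library 3 or WT library 1 left out, that gene was higher in il26KO. None of the 90 was called in any of these fits.

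**Figure D2:**
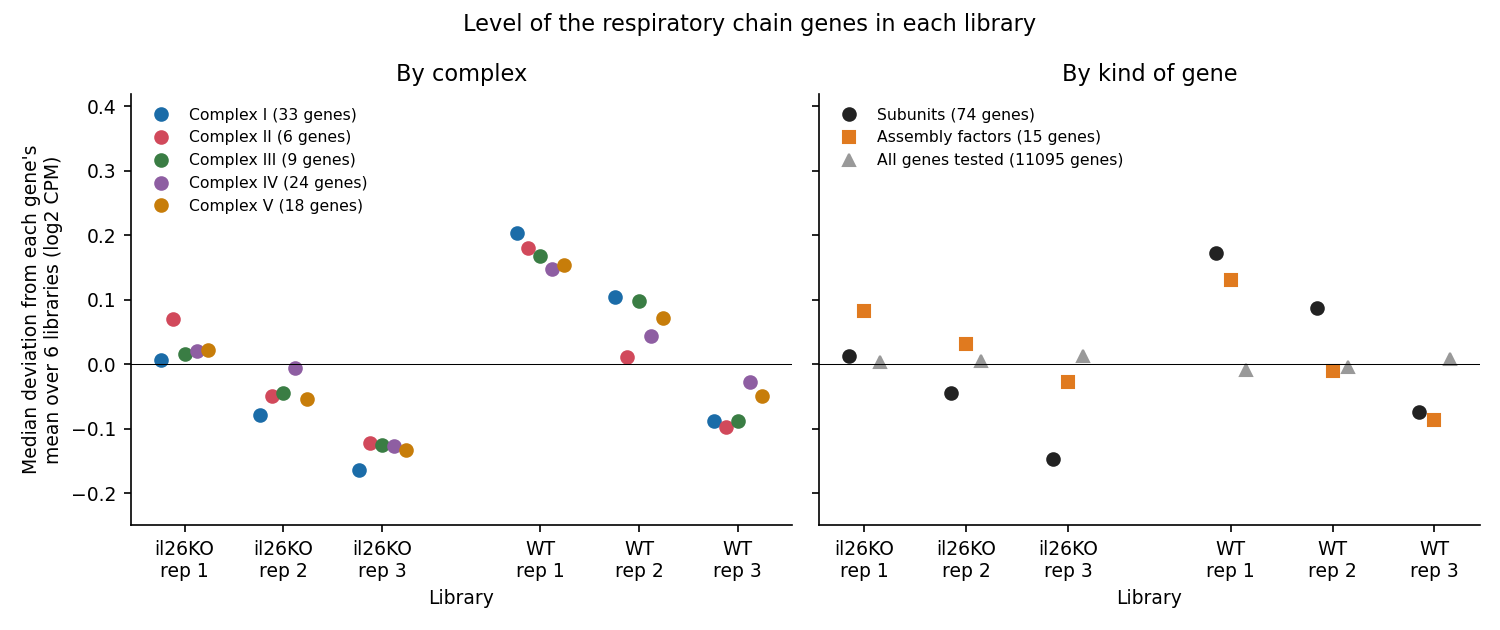
Median deviation of log2 CPM from each gene's mean over 6 libraries (y axis) in each il26KO and WT library (x axis), by complex on the left and for subunits, assembly factors and all genes tested on the right. Points of the complexes differ within a library, for example from 0.01 for complex II to 0.10 for complex I in WT library 2. WT library 1 is highest and il26KO library 3 lowest for each complex, and all genes tested stay near 0.

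Marker genes of the cell types in the dissected tissue varied between the libraries. Summed enterocyte markers were 8878, 8842 and 7799 CPM in il26KO libraries 1 to 3 and 9360, 8534 and 7083 CPM in WT libraries 1 to 3. Within each genotype library 1 was highest and library 3 lowest for this sum too. Single markers differed in il26KO, where vil1 and slc15a1b were highest in library 1 but fabp2, fabp6, cldn15la and cdx1b in library 2. Between the genotypes, 4 of the 6 enterocyte markers were higher in il26KO, with a median log2 fold change of 0.05. Skeletal muscle markers, a tissue rich in mitochondria that a dissection can carry along, summed to 364 to 572 CPM in il26KO and 299 to 687 CPM in WT. Of these 6 markers 1 was at 0 everywhere, and only 3 had enough counts to be tested. Liver markers, all 4 detected, summed to 9400 to 11959 CPM in il26KO and 7148 to 16141 CPM in WT. The 5 acinar pancreas markers summed to 16102 to 25953 CPM in il26KO and 20790 to 26482 CPM in WT, and the 3 smooth muscle markers to 2058 to 2608 CPM in il26KO and 2062 to 2224 CPM in WT. The 4 erythroid markers summed to 11.1 to 21.3 CPM in il26KO and 20.7 to 41.1 CPM in WT. The genotypes overlapped in each of these sums, in the erythroid sums only by il26KO library 3. All 3 tested erythroid markers were lower in il26KO, with a median log2 fold change of −0.82 and 0 called. Of these 3, 1 (hbbe1.1) did not overlap between the genotypes (33.3%, against 4.91% of all genes). This gene also had an unadjusted p below 0.05 in edgeR (33.3%, against 6.03% of all genes). Its log2 fold change was −0.95 ± 0.31 (SE, adjusted p = 0.658, edgeR). Of the 6 libraries, WT library 1, highest for most respiratory chain genes, had the lowest liver and skeletal muscle sums (7148 and 299 CPM). It also had the highest enterocyte and acinar pancreas sums (9360 and 26482 CPM). For the smooth muscle and erythroid sums it was at neither end. The part of these sums in the levels of the respiratory chain genes was not tested. In bulk RNA, fewer cells of a type and less of a transcript in each cell cannot be told apart.

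Complex I, NADH dehydrogenase, takes electrons from NADH and is the largest complex of the chain. Of its 33 tested genes 29 were lower in il26KO, with a median log2 fold change of −0.15. An unadjusted p below 0.05 was found for 1 (3.03%, against 6.03% of all genes). The core subunits include those that carry the flavin and the iron-sulphur centres. ndufv1, which holds the flavin that accepts electrons from NADH, had 433, 395 and 376 CPM in il26KO and 471, 446 and 398 CPM in WT, a log2 fold change of −0.13 ± 0.095 (SE; adjusted p = 0.901 in the edgeR quasi-likelihood test, as are all adjusted p-values here). The iron-sulphur subunit ndufs1 had 244, 236 and 210 CPM in il26KO and 257, 253 and 218 CPM in WT (−0.08 ± 0.099). Both overlapped between the genotypes. Among the 7 tested core subunits 5 were lower, and ndufs7 and ndufs8a, which carry iron-sulphur centres near the quinone site, had log2 fold changes of 0.10 ± 0.14 and 0.06 ± 0.090. They are named because of their sign, which was seen first. Other core subunits were ndufv2, an iron-sulphur subunit, at −0.19 ± 0.089, and ndufs3, a structural part of the peripheral arm, at −0.16 ± 0.13.

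The accessory subunits surround the core of complex I and are needed for its stability. All 21 that were tested had negative log2 fold changes, with a median of −0.18 and a range of −0.24 to −0.02. The lowest value was that of ndufa2, a small subunit of the matrix arm, which had 38.9, 34.5 and 34.9 CPM in il26KO and 46.1, 44.3 and 37.7 CPM in WT. Its highest il26KO library lay above its lowest WT library, and its log2 fold change was −0.24 ± 0.097 (adjusted p = 0.799, edgeR). In 1 of the 21, ndufb8, a subunit of the membrane arm, the genotypes did not overlap. It had 192, 175 and 170.0 CPM in il26KO and 218, 195 and 196 CPM in WT, −0.18 ± 0.086 with an adjusted p of 0.857 in edgeR. The other accessory subunits overlapped between the genotypes. Of those in the membrane arm, ndufb7, ndufb11 and ndufc2 had −0.22 ± 0.10, −0.18 ± 0.13 and −0.21 ± 0.11, and ndufb2, the accessory gene nearest 0, had 13.9, 11.8 and 11.9 CPM in il26KO and 13.8, 14.0 and 10.4 CPM in WT (−0.02 ± 0.13). The 5 tested assembly factors of complex I had log2 fold changes between −0.18 and 0.06, 3 of them below 0, and ndufaf3 did not overlap, at 53.1, 52.0 and 54.3 CPM in il26KO and 60.3, 55.7 and 56.3 CPM in WT (−0.11 ± 0.070). Genes without overlap were picked out by that pattern. Over the whole set of 90 there were 8 with every il26KO library below every WT library (8.89%), against 4.91% of all genes, and 1 with every il26KO library above, against 5.94%.

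Complex II, succinate dehydrogenase, is shared with the TCA cycle and is the complex with no mitochondrially encoded subunit. Of its 6 tested genes 5 were lower, with a median of −0.09. sdha, the flavoprotein that oxidizes succinate, had 545, 520.1 and 490.2 CPM in il26KO and 659, 601 and 529.9 CPM in WT. Its log2 fold change of −0.20 ± 0.099 was the lowest in this complex, and il26KO library 1 lay above WT library 3 (adjusted p = 0.857, edgeR). Its partner sdhb, the iron-sulphur subunit, showed no such difference, with 317, 295 and 276 CPM in il26KO and 337, 286 and 271 CPM in WT (−0.01 ± 0.10). The sign for sdhb turned without WT library 1 (0.08) and without il26KO library 3 (0.04). The difference between sdha and sdhb was not tested. The assembly factors sdhaf2 and sdhaf4, which help to flavinate and mature the succinate-oxidizing subunit, had log2 fold changes of −0.12 ± 0.12 and −0.14 ± 0.092, and sdhaf3 had 0.13 ± 0.14.

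Of the membrane anchor genes of complex II, sdhdb was well counted, and sdhda and sdhc had few counts. sdhdb had 99.5, 98.4 and 88.2 CPM in il26KO and 110, 105 and 86.0 CPM in WT (−0.07 ± 0.11). Its paralog sdhda had 1, 2 and 1 counts in il26KO and 3, 7 and 3 counts in WT, and sdhc, the other anchor, had 0 counts in each il26KO library and 2, 4 and 0 counts in WT. Neither was tested, and at these counts no fold is given.

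Complex III passes electrons from quinol to cytochrome c. All 9 genes were tested and all 9 had log2 fold changes below 0, with a median of −0.09. The Rieske iron-sulphur protein uqcrfs1 had 220, 218 and 207 CPM in il26KO and 242, 235 and 201 CPM in WT (−0.07 ± 0.092). cyc1, the cytochrome that hands the electron on, had 323, 311 and 295 CPM in il26KO and 360, 337 and 303 CPM in WT (−0.11 ± 0.089). In both genes the WT libraries spanned more than the il26KO libraries and overlapped them. uqcr10, a small membrane subunit, had 72.0, 63.4 and 62.0 CPM in il26KO and 86.6, 81.0 and 68.9 CPM in WT, with a log2 fold change of −0.26 ± 0.11 (adjusted p = 0.808, edgeR). Of the il26KO libraries, only library 1 reached into its WT range. The small subunits uqcrb and uqcrq, which pack around the cytochrome b core, had −0.19 ± 0.11 and −0.17 ± 0.11, and the acidic hinge protein uqcrh, which helps cytochrome c dock, had −0.06 ± 0.11. The large paired subunits uqcrc1, uqcrc2a and uqcrc2b had −0.09 ± 0.097, −0.03 ± 0.085 and −0.06 ± 0.093. Cytochrome c itself, the soluble carrier encoded by cycsb and outside the rule for membership, had 128, 128 and 124 CPM in il26KO and 126, 127 and 121 CPM in WT (0.03 ± 0.070).

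Complex IV, cytochrome c oxidase, reduces oxygen to water. Its catalytic subunits are mitochondrially encoded, and the nuclear genes provide the subunits around them and the assembly factors. Of 24 tested genes 18 were lower, with a median of −0.08. As a share of all counts the complex held 0.305%, 0.299% and 0.280% in il26KO libraries and 0.330%, 0.313% and 0.308% in WT libraries, with no overlap. Summed CPM of the same genes did overlap, at 3053, 3003 and 2791 in il26KO and 3388, 3142 and 2992 in WT. The separation therefore depended on the library size used.

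Most complex IV subunits had values a little below WT. cox4i1, the main isoform of the largest nuclear subunit, had 457, 466 and 418 CPM in il26KO and 501, 464 and 438 CPM in WT (−0.06 ± 0.086), and cox5aa had 301, 288 and 260 CPM in il26KO and 321, 304 and 268 CPM in WT (−0.07 ± 0.098). Both overlapped. cox6b1, a subunit on the face turned to the intermembrane space, had the smallest p of the 90 genes, with 214, 225 and 211 CPM in il26KO and 263, 245 and 241 CPM in WT. Each il26KO library was below each WT library, and the log2 fold change was −0.21 ± 0.076 (adjusted p = 0.746, edgeR). The genotypes also did not overlap for cox6a1 (−0.17 ± 0.081) and for cox8a (−0.13 ± 0.070), both small membrane subunits. Further subunits were cox6c, cox7b and cox7c, at −0.08 ± 0.081, −0.08 ± 0.096 and −0.11 ± 0.090, each with overlap. cox4i2, whose mammalian counterpart is an oxygen-responsive isoform, had the highest log2 fold change of the 90, 0.37 ± 0.23, at low counts. It had 6.77, 5.69 and 3.81 CPM in il26KO and 3.41, 4.42 and 4.68 CPM in WT, overlapping, and is named for its position after its values were seen.

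**Figure D3:**
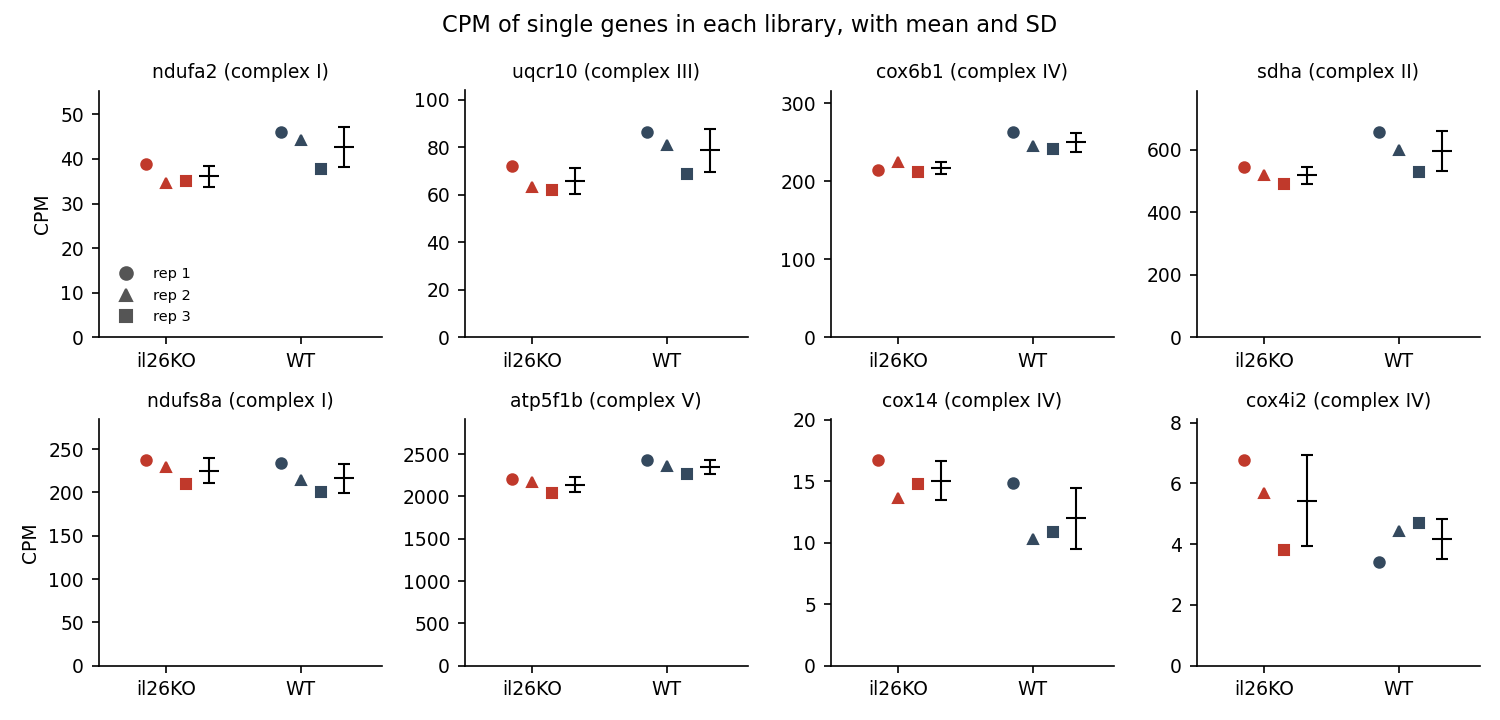
CPM (y axis, from 0) of 8 respiratory chain genes in each il26KO library, left, and each WT library, right, with marker shapes for replicates and bars for mean ± SD (n = 3 each). ndufa2, uqcr10 and cox6b1 have the smallest p-values, cox6b1 and atp5f1b do not overlap between genotypes, and ndufs8a, cox14 and cox4i2 are examples with a higher il26KO mean.

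Assembly factors of complex IV within the membership rule did not share the direction of its subunits, but those outside it mostly did. Of 17 tested subunits 16 were lower, with a median of −0.11. Of 7 tested assembly factors within the rule 5 were higher, with a median of 0.05. Of 13 tested outside it 10 were lower, with a median of −0.04. cox14, which in mammals acts in the synthesis of the catalytic core subunit, had 16.7, 13.6 and 14.8 CPM in il26KO and 14.8, 10.3 and 10.9 CPM in WT, a log2 fold change of 0.33 ± 0.15 (adjusted p = 0.857, edgeR). cox16, which acts in the maturation of a mitochondrially encoded subunit, was the 1 gene of the 90 with every il26KO library above every WT library, at 7.13, 7.67 and 6.84 CPM in il26KO and 6.54, 6.81 and 6.27 CPM in WT (0.14 ± 0.11). cox10 and cox15, which make the haem of the enzyme, had 0.05 ± 0.087 and 0.11 ± 0.12. The copper chaperone cox17 went the other way and had the lowest value of all 90 genes, −0.29 ± 0.23, with 33.1, 19.2 and 21.3 CPM in il26KO and 33.6, 34.1 and 22.3 CPM in WT. In cox17, il26KO library 1 lay near the higher WT libraries and WT library 3 near the lower il26KO libraries. These assembly factors were chosen after their values were seen.

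Over complexes I to V, 70 of 74 tested subunits were lower, with a median of −0.13. Of 15 tested assembly factors within the membership rule 7 were lower, with a median of 0.0051. Of 25 tested outside the rule 19 were lower, with a median of −0.05. The values below are for the 15 within it. With size factors by the median-of-ratios method the assembly median turned to −0.0046, with 8 of 15 lower, and the subunit median was −0.14, with 70 of 74 lower. The 15 assembly factors summed to 268, 244 and 239 CPM in il26KO and 278, 255 and 239 CPM in WT. The difference between subunits and assembly factors was not tested. The medians of the subunits and of the 15 assembly factors moved when single libraries were left out. Without il26KO library 1 the subunit median was −0.17 and the assembly median −0.06. Without il26KO library 2 they were −0.15 and −0.05, and without WT library 3 they were −0.18 and −0.06. In each of these fits 9 of 15 assembly factors were lower. Without il26KO library 3 the medians were −0.08 and 0.04, with 6 of 15 lower. Without WT library 1 they were −0.08 and −0.01, and without WT library 2 −0.12 and −0.0034, with 8 of 15 lower in each.

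Complex V, the ATP synthase, had 17 of 18 tested genes lower, with a median of −0.12. The catalytic head is built from alternating alpha and beta subunits. The alpha subunit, listed as atp5fa1, had 2293, 2220 and 2092 CPM in il26KO and 2483, 2299 and 2190 CPM in WT (−0.08 ± 0.085), with overlap. The beta subunit atp5f1b, which carries the catalytic sites, had 2207, 2171 and 2035 CPM in il26KO and 2428, 2354 and 2264 CPM in WT. Its genotypes did not overlap, and its log2 fold change was −0.14 ± 0.078 (adjusted p = 0.884, edgeR). The remaining head and shaft subunits atp5f1c, atp5f1d and atp5f1e had −0.05 ± 0.081, −0.14 ± 0.086 and −0.07 ± 0.096.

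The stalk and membrane subunits of complex V followed the same sign in 11 of 12 genes, with a median of −0.14. Of the peripheral stalk, which holds the head still, atp5pf had 182, 182 and 179 CPM in il26KO and 201, 197 and 197 CPM in WT, without overlap (−0.13 ± 0.068), while atp5pb, atp5pd and atp5po had −0.08, −0.06 and −0.05 and overlapped. atp5l, a membrane subunit that helps ATP synthases form dimers, did not overlap, with 262, 238 and 234 CPM in il26KO and 277, 270 and 264 CPM in WT (−0.14 ± 0.079). Its neighbours in the membrane part, atp5mf and atp5md, had −0.18 ± 0.10 and −0.19 ± 0.12 and overlapped. The 3 genes for the proton-carrying ring differed in sign. atp5mc1 and atp5mc3a had −0.18 ± 0.13 and −0.11 ± 0.11, and atp5mc3b had 0.02 ± 0.086, with 1197, 1212 and 1093 CPM in il26KO and 1234, 1121 and 1096 CPM in WT. atp5if1a, the inhibitor that stops the synthase from running backwards, had 133, 116 and 114 CPM in il26KO and 143, 114 and 117 CPM in WT (−0.04 ± 0.11). The sign for atp5if1a turned without WT library 1 (0.06) and without il26KO library 3 (0.00022). Its paralog atp5if1b had 0 counts throughout.

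Paralogs and isoforms are set side by side here, with no test of the differences within pairs. None of them passed the test between genotypes. The mitochondrial acyl carrier genes ndufab1a and ndufab1b had −0.19 ± 0.12 and −0.18 ± 0.13. cox5aa and cox5ab had −0.07 ± 0.098 and −0.14 ± 0.079, cox4i1 and cox4i2 −0.06 ± 0.086 and 0.37 ± 0.23, cox6b1 and cox6b2 −0.21 ± 0.076 and −0.11 ± 0.080, and atp5mea and atp5meb −0.21 ± 0.096 and −0.18 ± 0.095. Isoforms that in mammals are typical of heart and skeletal muscle stand beside their general forms as follows. cox6a2 had 28.9, 26.3 and 24.3 CPM in il26KO and 33.5, 25.3 and 23.5 CPM in WT (−0.05 ± 0.14), against −0.17 for cox6a1. cox7a1 had 52.8, 43.1 and 39.9 CPM in il26KO and 51.8, 47.9 and 46.2 CPM in WT (−0.10 ± 0.11), against −0.17 ± 0.11 for cox7a2a. cox8b had 191, 194 and 174 CPM in il26KO and 232, 197 and 190.4 CPM in WT (−0.15 ± 0.098), against −0.13 for cox8a. Of these muscle isoforms, cox6a2 and cox8b were highest in WT library 1 and cox7a1 in il26KO library 1. The summed skeletal muscle markers, of which only 3 had enough counts to be tested, were highest in WT library 3. The part of muscle tissue in the levels of these isoforms was not tested. ndufa4l had 257, 246 and 245 CPM in il26KO and 261, 249 and 251 CPM in WT (−0.03 ± 0.071), and ndufa4 had 19 counts over all 6 libraries. How reads that match several genes were counted was not given in the sources used here, so the split between close paralogs is uncertain.

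The order of the complexes by median, with complex I lowest and complex IV nearest 0, held only in part when single libraries were left out. Complex I was lowest in every fit except that without WT library 1, in which complex V was lower (−0.10 against −0.08). Complex II was nearest 0 without il26KO library 2 or WT library 1, and complex III without WT library 2. With assembly factors left out and all 6 libraries kept, complex II was nearest 0. The medians were then −0.16, −0.07, −0.09, −0.11 and −0.12 for complexes I to V. The range over the fits that each left out 1 library was −0.21 to −0.08 for complex I, −0.16 to −0.03 for complex II, −0.17 to −0.05 for complex III, −0.14 to −0.03 for complex IV and −0.16 to −0.09 for complex V. These ranges overlap. Leaving out WT library 1 moved the median of complex I by more than 1.5 times. The same held for complex II with il26KO library 1, WT library 1 or WT library 3 left out, for complex III with il26KO library 1, il26KO library 3, WT library 1 or WT library 3 left out, and for complex IV with il26KO library 1, il26KO library 3 or WT library 3 left out. The median of complex V moved by less than this in each of the 6 fits.

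**Figure D4:**
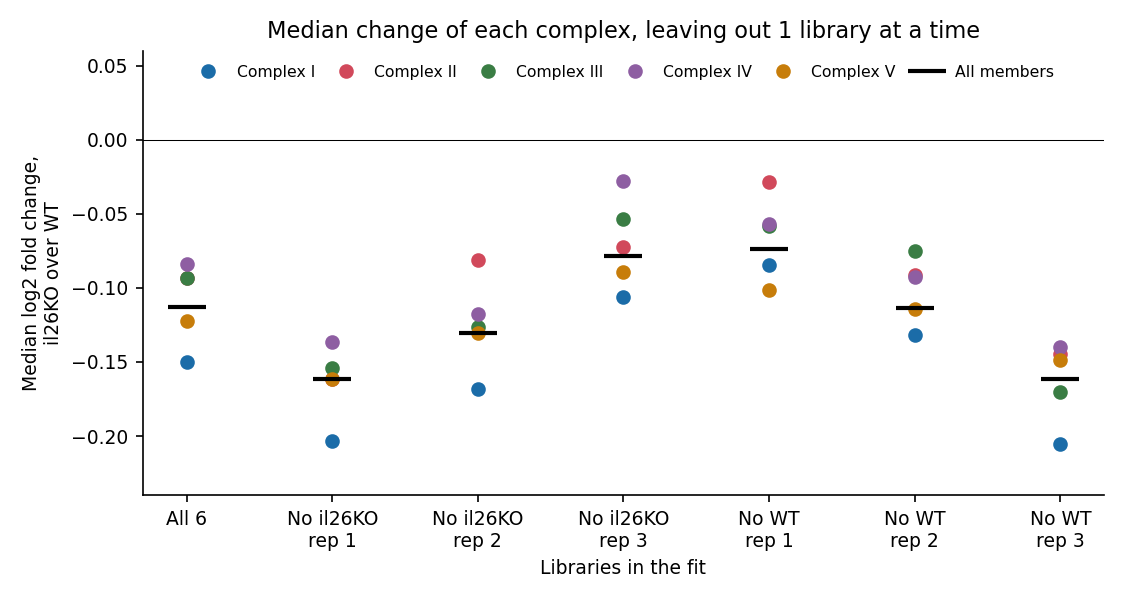
Median log2 fold change (y axis, il26KO over WT) of each complex and of all tested members, from the fit of all 6 libraries and from fits that each leave out 1 library (x axis). Each median stays below 0; that of all members lies nearest 0 without WT replicate 1 (−0.07) and farthest from it without WT replicate 3 (−0.16).

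The remaining 14 of the 104 genes had too few counts to be tested. Besides ndufa4, sdhda and sdhc, the genes cox7a2l, ndufa8 and ndufb9 had 1 count each in all 6 libraries together, and atp5if1b, cox11, ndufa1, ndufa12, ndufb4, ndufb5, ndufs4 and ndufs8b had 0 counts in each. Several of these, such as ndufs4 and ndufa1, encode subunits of complex I, of which 33 other genes had enough counts to be tested. Why their counts were 0 was not tested, and a count of 0 here is not read as absence of the transcript. Of the 13 mitochondrially encoded subunits, 0 were matched by symbol in the count table, so they were not analysed here.

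Genes that work with the respiratory chain were compared in the same fit, from lists compiled by function. The TCA cycle and pyruvate dehydrogenase, which supply the NADH and succinate, had 15 of 15 tested genes with log2 fold changes below 0, a median of −0.10 and 0 calls, with 0 also at an unadjusted p below 0.05. The summed level of these 15 was 3583, 3503 and 3385 CPM in il26KO and 3921, 3719 and 3448 CPM in WT, again with overlap. WT library 1 was highest and il26KO library 3 lowest, as for the respiratory chain. Assembly factors whose symbols fall outside the membership rule had 19 of 25 lower, a median of −0.05 and 0 calls. At an unadjusted p below 0.05 they had 1 gene (4%, against 6.03% of all genes).

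Of the regulators that in mammals act on mitochondrial content, 9 were tested, 6 were lower, the median log2 fold change was −0.02 and 0 were called. At an unadjusted p below 0.05 there was 1 of the 9 (11.1%, against 6.03% of all genes), tfb1m, which was lower. nrf1, a transcription factor of respiratory genes, had 25.1, 28.1 and 24.4 CPM in il26KO and 26.2, 25.9 and 24.4 CPM in WT (0.02 ± 0.081). esrra, a nuclear receptor with many of the same targets in mammals, had 11.99, 10.9 and 11.5 CPM in il26KO and 9.91, 13.4 and 11.6 CPM in WT (−0.02 ± 0.12). Neither gene kept its sign when single libraries were left out. tfam, which packages and transcribes mitochondrial DNA, had 15.2, 17.7 and 15.1 CPM in il26KO and 16.98, 17.01 and 17.17 CPM in WT (−0.10 ± 0.090). gabpa and gabpb1, the subunits of another factor that binds respiratory genes in mammals, had −0.15 ± 0.22 and −0.13 ± 0.19. The value farthest from 0 in the list was that of the nuclear receptor gene esrrb, 1.18 ± 0.52 (adjusted p = 0.842, edgeR), at 16, 4 and 23 counts in il26KO and 5, 12 and 4 counts in WT, which overlapped. gabpa, gabpb1, tfb1m and esrrb were named after their values were seen.

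Most of the 90 genes, 70 of them, lay in the top quartile of mean level among all genes tested. From the lowest quartile to the highest, the share of all genes lower in il26KO was 43.3%, 45.4%, 48.4% and 49.96%, and the median log2 fold change was 0.04, 0.02, 0.0049 and 0.00010. These quartiles were set beside the respiratory chain after its values were seen, and the part of expression level in its result was not tested.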

How the data were processed

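Bulk mRNA libraries from dissected guts of 5-dpf zebrafish larvae (3 il26KO, 3 WT) were analysed. Sample titles gave the groups and replicate numbers, and 0 columns were left without a sample. The authors deposited raw counts per gene symbol, without normalization. Per the labels, stranded poly(A)-selected libraries gave paired reads of 100 bp, which passed through FastQC 0.11.8 and an alignment to danRer11. Aligner, gene annotation, counting tool, use of strand and treatment of multiply matching reads were not given in the sources used here. The study names edgeR.

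Differential expression was computed in R 4.3.3 with edgeR 4.0.16. The filterByExpr step, given the genotypes, required a count of 10 and a total of 15, and 11095 of 15419 genes passed. TMM factors (trimmed mean of M-values) set the library sizes. The two-sided quasi-likelihood test compared il26KO with WT, with Benjamini-Hochberg adjustment across every gene tested and a threshold of 0.05. The standard error was obtained as log2 fold change over the square root of F. Log2 CPM used a prior count of 2. A floor of 3 counts equals 0.106 to 0.192 CPM, covering counting error only. All library pairs differed beyond sampling noise. The fit was tested on simulated counts.

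Alternatives were a minimum of 10 counts in each library, no filter on counts, median-of-ratios (RLE) scaling, DESeq2 1.42.0, a block for replicate number, a robust fit, leaving out each library, leaving out assembly factors, placing the ndufa4 genes in complex I, and other measures of the summed level.

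The members and all gene lists were chosen with earlier results of these data known. Genes were named by rule: members called, members at an unadjusted p below 0.05, fixed core subunits of each complex, paralog and isoform pairs, the synthase inhibitors, and ppargc1a (not matched here), esrra, nrf1 and tfam. The values of 1 fixed gene are not reported here. Others were named after their values were seen, as stated. A planned comparison of levels between genes per coding length was not made, because no coding lengths were used here. No sequences are shown for the same reason.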

Additional observations from a re-analysis of the deposited data

How the results depend on the processing

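No respiratory chain gene was called under any alternative. All genes called numbered 12 in the fit reported, 2 with the replicate number as a block and 83 with DESeq2. Members at an unadjusted p below 0.05 numbered 3, and 14 with the block (13 lower, 1 higher), which is 15.6% of members against 5.64% of all genes in that fit. The cause of these shifts was not tested. Over all genes tested, deviations of same-numbered libraries from their genotype means correlated at −0.23, −0.04 and 0.11. Of the il26KO libraries, only that of replicate 3 correlated best with its own number. With 3 libraries a genotype, these correlations cannot settle whether the numbers pair the libraries. The members' share of counts fell from library 1 to library 3 in both genotypes. Whether the numbers pair the libraries for these genes was not tested. Under RLE scaling, either change of the count filter, the block, DESeq2 or the robust fit, 78 to 83 of the 90 to 96 members tested were lower in il26KO.

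Leaving out 1 library at a time, genes called ranged from 3 to 8 and members at an unadjusted p below 0.05 from 0 to 25. Medians ranged over −0.16 to −0.07 for all members, with 72 to 81 of 90 lower. Signs turned for sdhb (range −0.080 to 0.075), atp5if1a (−0.13 to 0.059), nrf1 (−0.060 to 0.057) and esrra (−0.13 to 0.095). With 3 libraries a genotype and a median standard error of 0.098 for a member, differences of the size seen here were not separable gene by gene.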

Other observations

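The machinery that imports nuclear-encoded subunits into mitochondria, a list compiled by function, had 21 tested genes, of which 15 were lower in il26KO, with a median log2 fold change of −0.04 and 0 called by edgeR. Genes at an unadjusted p below the 0.05 threshold made up 9.52% of them, against 6.03% of all genes, and were tomm7 and timm44, both lower. tomm7, a small subunit of the outer membrane translocase, had 25.7, 28.5 and 24.7 CPM in il26KO and 35.8, 33.4 and 28.4 CPM in WT (−0.31 ± 0.10 (SE), adjusted p = 0.671, edgeR). timm44, which ties the import motor to the inner membrane channel, had 13.7, 14.6 and 14.1 CPM in il26KO and 16.1, 17.5 and 15.6 CPM in WT, with no overlap (−0.21 ± 0.085, adjusted p = 0.795, edgeR).

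Among the other lists of genes that work with the respiratory chain, nubpl and tfb1m also had an unadjusted p below 0.05. These 4 genes were picked out for it. nubpl, a factor for the iron-sulphur centres of complex I, had 6.77, 6.84 and 7.23 CPM in il26KO and 7.80, 8.40 and 8.69 CPM in WT, again with no overlap (−0.25 ± 0.10, adjusted p = 0.789, edgeR). tfb1m, a methyltransferase that modifies the RNA of the mitochondrial small ribosomal subunit, had 8.90, 7.48 and 7.05 CPM in il26KO and 9.91, 10.2 and 8.77 CPM in WT, overlapping by 1 il26KO library (−0.31 ± 0.12, adjusted p = 0.808, edgeR).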
